A study of Mus musculus with 12 samples.

Results

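Nat8, Nat8f5, Keg1, Glyat, Acnat1 and Acnat2 are 6 mouse genes for acetyl- and acyl-conjugating enzymes, and their RNA levels were followed in the liver of progeria and wild-type mice on a methionine-restricted or a control diet. They were chosen by their array levels, as conjugating enzymes that differ between the genotypes, so the genotype differences below describe the choice and carry no test. All 6 were found among the 19938 genes measured, each with 1 probe set annotated to that gene alone. The genotype criterion held for 5 of the 6, and Acnat1 went against it.

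The study measured total liver RNA of male C57BL/6N mice on 12 arrays, in 4 groups of 3 arrays. KI_MR and KI_CD mice were homozygous for the Lmna G609G allele (Lmna G609G/G609G), a germline knock-in of the mutation type that causes Hutchinson-Gilford progeria, and came from heterozygous parents. KI_MR mice ate a methionine-restricted diet (MR) and KI_CD mice the control diet (CD). WT_MR mice were wild type on the restricted diet, and WT_CD mice were wild type on the control diet. In all groups the diets began at 7 weeks of age and were given as solid and crushed pellets, and liver was taken at 110 days after 6 h of fasting. The allele is present in every tissue, so a change in liver RNA need not start in the liver. The labels do not give the diets' methionine content or say whether each array holds a separate animal, so the p-values measure the spread between arrays.

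N-acyltransferases move an acyl group from coenzyme A onto an amino group, often that of an amino acid. In liver and kidney such reactions make fatty and aromatic acids, bile acids and glutathione-derived conjugates more soluble, so that they can be excreted. Nat8 belongs to a family whose human member acetylates cysteine conjugates at the endoplasmic reticulum, the last step of mercapturic acid formation. Glyat joins glycine to benzoyl-CoA and related acyl-CoAs in mitochondria, and Keg1, first described as kidney expressed gene 1, is its relative. Acnat1 joins taurine to long-chain fatty acids in peroxisomes, and Acnat2 is its close paralog.

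Levels are the deposited array intensities in arbitrary linear units, and differences are on the log2 scale with their standard error (SE) from the fit of all 12 arrays. An intensity depends on its probes, so levels were compared between groups for 1 gene and not between genes. Hepatocyte markers averaged between 13.30 and 13.59 log2 units on every array (6 of 6 genes measured). They averaged 13.56 to 13.59 in KI_CD and 13.42 to 13.52 in WT_CD. For KI minus WT averaged over diets all 6 lay above 0, with a median of 0.05 beside -0.04 over all genes, and 0 were called. Of 7 kidney tubule markers, 3 lay below the lower quartile of all genes on all arrays, and the list averaged 5.87 to 6.21 log2 units per array. The targeted gene Lmna measured 216 to 330 units on the KI arrays and 162 to 198 units on the WT arrays, and its probe set does not separate lamin A from progerin, so it does not check the genotype. The array KI_CD replicate 1 had the lowest mean correlation with its group, at 0.9855, against 0.9887 to 0.9942 for the other arrays. In bulk liver RNA, fewer cells of a type and less RNA per cell cannot be told apart.

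Both Nat8 genes were far lower in progeria liver. Nat8 measured 106, 124 and 94 units in KI_MR and 301, 398 and 569 units in WT_MR. On the control diet it measured 110, 164 and 193 units in KI_CD and 395, 345 and 407 units in WT_CD. No KI array reached the lowest WT array on either diet. The log2 difference was -1.93 ± 0.24 (SE) on the restricted diet, or 3.81-fold lower in KI_MR, and -1.33 ± 0.24 on the control diet, or 2.52-fold lower in KI_CD. Averaged over diets it was -1.63 ± 0.17, the 11th lowest value among the 19938 genes.

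Nat8f5, a Camello-like paralog of Nat8 and its direct neighbour, measured 46, 41 and 36 units in KI_MR and 170, 134 and 468 units in WT_MR. It measured 44, 39 and 71 units in KI_CD and 278, 176 and 427 units in WT_CD. Its groups did not overlap between genotypes, but the WT arrays were widely spread, with a standard deviation (SD) of 0.96 log2 units in WT_MR and 0.64 in WT_CD (n = 3 each). On 4 of the 6 KI arrays Nat8f5 lay below the lower quartile of all genes (5.49 to 5.67 log2 units, depending on the array). With that quartile in place of the dimmer values, the mean of Nat8f5 was 4.96-fold lower in KI livers over both diets. The measured averaged log2 difference, -2.45 ± 0.31, rests on those dim values.

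WT_MR replicate 3 was the highest array for both Nat8 and Nat8f5. Without it the difference between KI_MR and WT_MR was -1.69 for Nat8 and -1.89 for Nat8f5. The group means of Nat8 were ordered KI_MR, KI_CD, WT_CD, WT_MR, and those of Nat8f5 KI_MR, KI_CD, WT_MR, WT_CD, from low to high. For both genes the arrays overlapped between the diets of 1 genotype and were separate between KI_CD and the next WT group.

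The sequences upstream of Nat8f5 and Nat8 are shown because these neighbours moved together. They are the 250 bases before the annotated start (RefSeq, GRCm38.p6), 5′ to 3′ on the minus strand that both genes use. Capitals mark the hexamer GTTAAT, the core of the site that the hepatocyte factors of the HNF1 family recognise. The Nat8f5 window is chr6:85820973-85821222, and the Nat8 window, the one with a match among its 2 annotated starts, is chr6:85832280-85832529.
Nat8f5: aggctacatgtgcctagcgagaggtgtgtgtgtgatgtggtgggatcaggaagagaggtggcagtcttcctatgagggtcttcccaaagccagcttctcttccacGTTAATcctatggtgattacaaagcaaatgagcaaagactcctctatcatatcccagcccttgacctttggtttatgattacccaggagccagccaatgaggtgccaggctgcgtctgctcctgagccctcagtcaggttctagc
Nat8: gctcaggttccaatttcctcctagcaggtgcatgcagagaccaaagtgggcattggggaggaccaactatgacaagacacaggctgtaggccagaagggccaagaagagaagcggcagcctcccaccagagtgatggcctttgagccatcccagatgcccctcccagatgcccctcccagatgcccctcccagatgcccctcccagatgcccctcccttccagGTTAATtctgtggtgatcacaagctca
The hexamer starts 145 bases before the start of Nat8f5 and 27 bases before that of Nat8.

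Around it the windows share a stretch of 30 bases of which 25 are identical, at chr6:85821098-85821127 for Nat8f5 and chr6:85832287-85832316 for Nat8. It was picked as the most alike ungapped stretch of this length over all placements of the Nat8f5 window against the Nat8 windows. No other gene was searched this way, so whether such a stretch is particular to these genes was not tested. Capitals here mark the identical bases.
Nat8f5 stretch: TCtCTTCCAcGTTAATcCTaTGGTGATtAC
Nat8 stretch: TCcCTTCCAgGTTAATtCTgTGGTGATcAC
On either strand, GTTAAT occurred in 6.43% of the 32851 upstream windows of this length, and in none of the windows of the relatives Nat8f1, Nat8f2, Nat8f4 and Gm4952. It was 1 of 11 motifs searched, all chosen after the sequences had been seen. A match describes these letters and not a bound site.

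Keg1 was also much lower in progeria liver on both diets. It measured 503, 279 and 659 units in KI_MR and 2183, 2417 and 2490 units in WT_MR. On the control diet it measured 599, 1333 and 1387 units in KI_CD and 3877, 2395 and 4261 units in WT_CD. All KI arrays were below all WT arrays. The log2 difference was -2.38 ± 0.36 on the restricted diet, or 5.22-fold lower in KI_MR, and -1.72 ± 0.36 on the control diet, or 3.29-fold lower in KI_CD. Averaged over diets it was -2.05 ± 0.26, rank 7 from the lowest. The group means ran KI_MR, KI_CD, WT_MR, WT_CD from low to high, and KI_CD overlapped with KI_MR through KI_CD replicate 1. Without that array the difference between KI_CD and WT_CD was -1.33 for Keg1 and -1.10 for Nat8.

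The upstream window of Keg1, chr19:12695540-12695789 on the plus strand (RefSeq, GRCm38.p6), is shown for comparison with the Nat8 pair. It held no GTTAAT. Capitals mark TTCNNNGAA, the form of site that STAT factors recognise, which was found 2 times, starting 173 and 107 bases before the gene.
Keg1: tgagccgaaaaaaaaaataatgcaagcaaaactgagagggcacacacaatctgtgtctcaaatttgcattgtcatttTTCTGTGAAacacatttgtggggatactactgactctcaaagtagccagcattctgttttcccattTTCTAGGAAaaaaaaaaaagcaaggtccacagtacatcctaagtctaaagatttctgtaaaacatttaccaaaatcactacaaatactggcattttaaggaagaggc
Of all windows 7.02% held this motif on either strand, and none of the other 5 genes did.

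Glyat, on the same chromosome 19 as Keg1, was lower by a far smaller step. It measured 2085, 1826 and 2036 units in KI_MR and 2410, 2384 and 2831 units in WT_MR. In KI_CD it measured 2106, 2013 and 2115 units, against 2382, 2194 and 3027 units in WT_CD. The groups did not overlap on either diet, yet the averaged log2 difference was -0.31 ± 0.08, or 1.24-fold lower in KI livers. It ranked 441 from the lowest.

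Acnat2 moved the opposite way, and every one of its 4 groups was separate from the next. It measured 819, 747 and 1133 units in KI_MR and 159, 181 and 375 units in WT_MR. On the control diet it measured 392, 605 and 472 units in KI_CD and 98, 134 and 125 units in WT_CD. The log2 difference was 2.0 ± 0.29 on the restricted diet, or 4-fold higher in KI_MR, and 2.03 ± 0.29 on the control diet, or 4.09-fold higher in KI_CD. Averaged over diets it was 2.02 ± 0.21, rank 3 from the highest of the 19938 genes. From low to high the group means were WT_CD, WT_MR, KI_CD and KI_MR, with steps of 0.91, 1.12 and 0.88 log2 units between neighbours.

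Acnat2 has 2 annotated starts, and GTTAAT occurred before both. The window shown, chr4:49408152-49408401 on the minus strand (RefSeq, GRCm38.p6), holds it as its reverse complement ATTAAC, in capitals, starting 46 bases before the start.
Acnat2: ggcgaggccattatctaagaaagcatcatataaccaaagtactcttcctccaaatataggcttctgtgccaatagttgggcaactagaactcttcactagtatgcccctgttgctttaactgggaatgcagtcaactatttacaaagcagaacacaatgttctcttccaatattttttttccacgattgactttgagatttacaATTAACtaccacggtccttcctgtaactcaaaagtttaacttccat
In all, 4 of the 8 windows of the 6 genes held the hexamer, before Nat8, Nat8f5 and Acnat2, which differed between genotypes in opposite directions.

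The other 9 motifs were searched on either strand in the same 8 windows. TGNNCTTTG (5.49% of all windows) occurred before Nat8 and Nat8f5, and CCAAT (33.8%) before Nat8, Nat8f5 and Acnat2. AGGTCA (14%) occurred before Nat8f5, TTGCNNAA (9.56%) before Acnat2 and TGACNNNGC (10.2%) before Keg1. TGTTTNC (17.8%) occurred before Glyat and Keg1, whereas its narrower form TGTTTAC (3.17%), ATCGAT (0.728%) and TATAAA (12.4%) were in none of the 8 windows. Among the relatives, TGNNCTTTG was also found before Nat8f2 and CCAAT before both Nat8f2 and Nat8f4. TGTTTNC occurred before Nat8f2 too, while AGGTCA was before Nat8f4, as was TGACNNNGC, and so was TATAAA. No motif was found before all 6 genes, and the windows of Acnat1 held none of the 11.

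Acnat1 did not follow its paralog. It measured 3640, 2950 and 3529 units in KI_MR and 3123, 3499 and 2651 units in WT_MR. It measured 3156, 3672 and 2877 units in KI_CD and 3140, 3488 and 3155 units in WT_CD. The arrays of all 4 groups overlapped. The averaged log2 difference was 0.06 ± 0.09, with a 95% interval of -0.14 to 0.25.

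**Figure D1:**
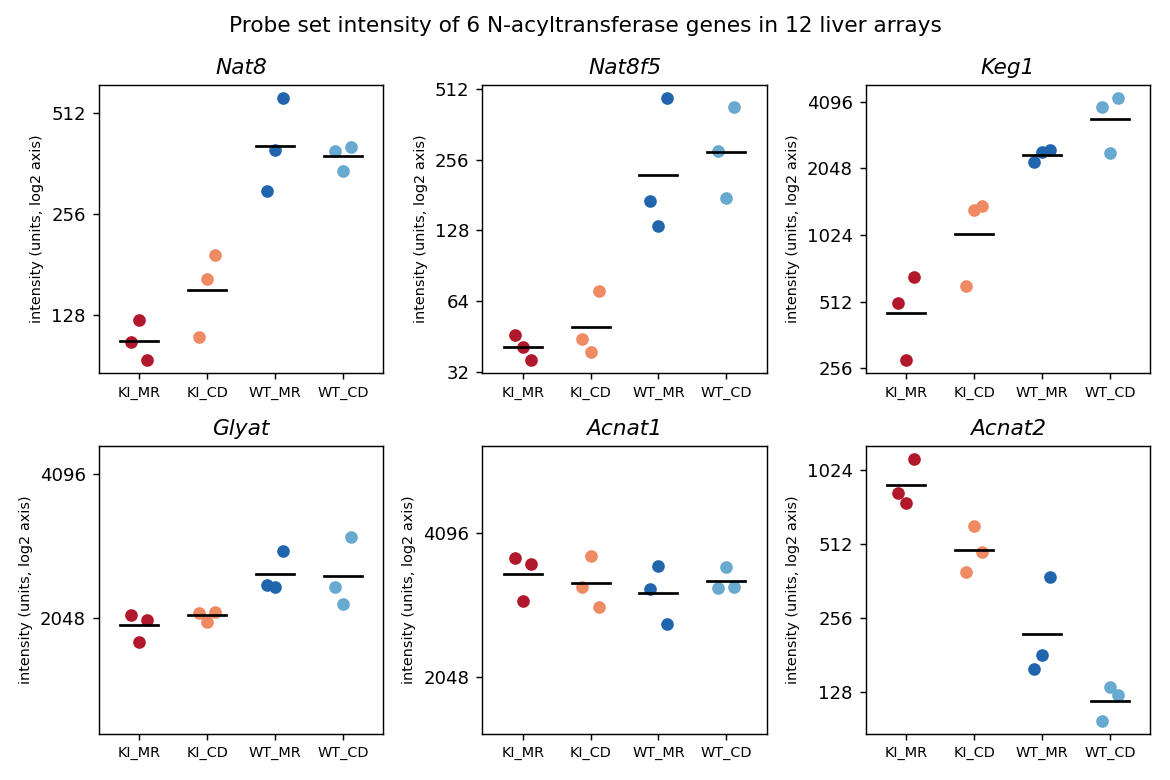
Intensity of each gene (arbitrary units, log2 axis with its own range per panel) on the 12 arrays, with 1 point per array and a line at the mean of the 3 log2 values of a group. Nat8, Nat8f5, Keg1 and Glyat lay lower on all 6 KI arrays than on any of the 6 WT arrays, Acnat2 lay higher, and the groups of Acnat1 overlapped.

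Counted over both diets, the 6 KI arrays did not overlap with the 6 WT arrays for 5 of the 6 genes, 4 lower and 1 higher in KI. Of all genes, 2.05% showed no overlap, 0.657% lower and 1.39% higher. Within a diet the same 5 genes were separate, against 16.3% of all genes between KI_MR and WT_MR and 19% between KI_CD and WT_CD. Since the genotype difference chose the members, nothing follows from these counts.

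The rule for choosing the genes did not use the diet comparison, which was tested. Averaged over genotypes, Acnat2 and Keg1 had diet differences of similar size and opposite sign. Acnat2 was higher on the restricted diet by 0.89 ± 0.21 log2 units, or 1.85-fold (95% interval 0.43 to 1.35, unadjusted p = 0.00124). Its adjusted p over all genes was 0.0721 (limma, Benjamini-Hochberg), which misses the threshold of 0.05. It passed in 3 of the alternative fits. Among them were the fit without the dimmest 25% of genes (adjusted p = 0.0473, limma) and that with array weights (difference 0.59, adjusted p = 0.0345, limma). These weights did not converge and put 16.7 on WT_MR replicate 1. In all 12 fits that left out 1 array Acnat2 did not pass, with adjusted p from 0.0562 to 0.184 (limma). The arrays on the restricted diet lay above those on the control diet in both genotypes, with 747 to 1133 units in KI_MR against 392 to 605 in KI_CD, and 159 to 375 units in WT_MR against 98 to 134 in WT_CD. An absence of overlap with the MR arrays higher was seen for 3.67% of all genes in KI and 6.35% in WT.

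Keg1 went the other way, with a difference of -0.86 ± 0.26 log2 units, or 1.82-fold lower on the restricted diet (95% interval -1.43 to -0.30, unadjusted p = 0.00625). Its adjusted p was 0.168 (limma). Of the 12 fits that left out 1 array, 11 did not pass, with adjusted p up to 0.333 (limma). The 1 that passed was without KI_CD replicate 1 (difference -1.06, adjusted p = 0.0281, limma). Without KI_MR replicate 2 the difference was -0.69. Within KI the Keg1 difference was -1.19 ± 0.36 (adjusted p = 0.326), and within WT it was -0.53 ± 0.36 (adjusted p = 0.844, limma). These comparisons share their arrays with the genotype comparisons.

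For each of the other 4 genes the interval of the averaged diet difference included 0. The difference was -0.20 ± 0.17 for Nat8 (95% interval -0.57 to 0.17) and -0.30 ± 0.31 for Nat8f5 (-0.98 to 0.38). For Glyat it was -0.03 ± 0.08 (-0.21 to 0.15), and for Acnat1 -0.01 ± 0.09 (-0.20 to 0.18). The intervals of Glyat and Acnat1 leave room for only a small diet difference, whereas that of Nat8f5 is wide.

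By limma, 0 of the 6 genes passed the adjusted threshold for diet averaged over genotypes, against 1.21% of all genes, and 2 of the 6 had an unadjusted p under 0.05. Within KI 0 of 6 passed (0.176% of all genes), and within WT 0 of 6 passed (0.326% of all genes). The unadjusted p within KI was 0.0123 for Acnat2 and 0.00707 for Keg1, and within WT it was 0.0103 for Acnat2. The median averaged diet difference of the 6 genes was -0.11, beside -0.01 over all genes.

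Whether the diet difference itself differed between genotypes was tested as the interaction. For Acnat2 the diet difference was 0.88 ± 0.29 in KI and 0.91 ± 0.29 in WT, and the interaction was -0.03 ± 0.42 (95% interval -0.94 to 0.88). With 1 array left out, the Acnat2 difference in WT ran from 0.52 (without WT_MR replicate 3) to 1.14 (without WT_MR replicate 1). For Keg1 the interaction was -0.66 ± 0.51 (-1.79 to 0.46). For Nat8 it was -0.60 ± 0.33 (-1.33 to 0.14), with diet differences of -0.50 ± 0.24 in KI and 0.10 ± 0.24 in WT. No interaction passed in limma, with 0 of 6 genes and 0 of 19938 called (0% of all genes), while 824 genes had an unadjusted p under 0.05. The intervals are wide, so equal diet effects in the genotypes were not shown.

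**Figure D2:**
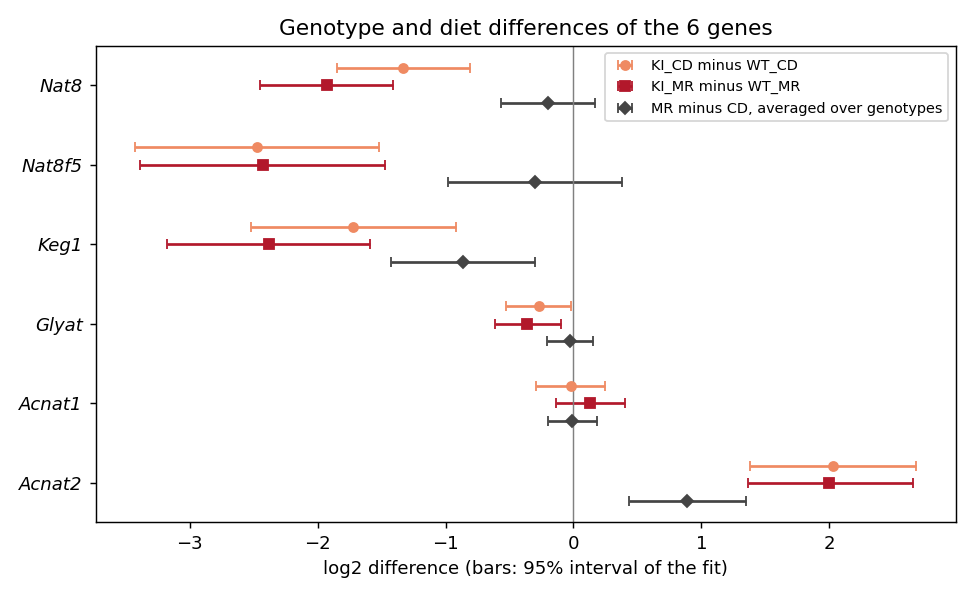
Log2 differences of the 6 genes with 95% intervals of the fit, for KI_CD minus WT_CD, KI_MR minus WT_MR and MR minus CD averaged over genotypes. The genotype differences chose the genes and are shown as a description, and the diet interval lies away from 0 for Keg1 and Acnat2 before adjustment over all genes.

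The 6 genes lie in 3 clusters of related genes, and within each cluster neighbours differed in their values. On chromosome 6 the coding genes run Nat8f5, Nat8, Nat8f2, Nat8f4, Nat8f1 with 0 other coding genes between them (RefSeq, GRCm38.p6). Nat8f2, the third in that row, measured 4918, 5405 and 4577 units in KI_MR and 4461, 4951 and 5490 units in WT_MR, and 5392, 5783 and 6950 units in KI_CD and 5596, 5619 and 5982 units in WT_CD. These ranges overlap between genotypes on both diets. Its averaged genotype difference was 0.03 ± 0.08 (adjusted p = 0.797, limma). Nat8f4 differed by 0.14 ± 0.08 (adjusted p = 0.33) and Nat8f1 by -0.44 ± 0.21 (adjusted p = 0.241, limma). Nat8 family genes share sequence, so reads of 1 by the probes of another were not tested.

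On chromosome 4 Acnat2, Acnat1 and Baat, which joins bile acids to taurine or glycine, are direct neighbours. Baat measured 1703, 1506 and 2105 units in KI_MR and 1472, 1267 and 1311 units in WT_MR, and 1393, 1680 and 1675 units in KI_CD and 1669, 1594 and 1452 units in WT_CD. The KI_MR arrays lay above the WT_MR arrays, while the control-diet groups overlapped. Its averaged difference of 0.19 ± 0.09 did not pass (adjusted p = 0.225, limma). Of the 3 neighbours, Acnat2 alone had separate KI and WT arrays on both diets.

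On chromosome 19 Gm4952, a gene of the glycine N-acyltransferase family, lies beside Glyat, and 2 olfactory receptor genes separate Glyat from Keg1. Gm4952 measured 1451, 1299 and 1640 units in KI_MR and 1183, 2207 and 2304 units in WT_MR, and 968, 1050 and 561 units in KI_CD and 1791, 1214 and 1529 units in WT_CD. It was lower in KI_CD with no overlap, whereas the restricted-diet groups overlapped. Its averaged genotype difference was -0.58 ± 0.20 (adjusted p = 0.133, limma).

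**Figure D3:**
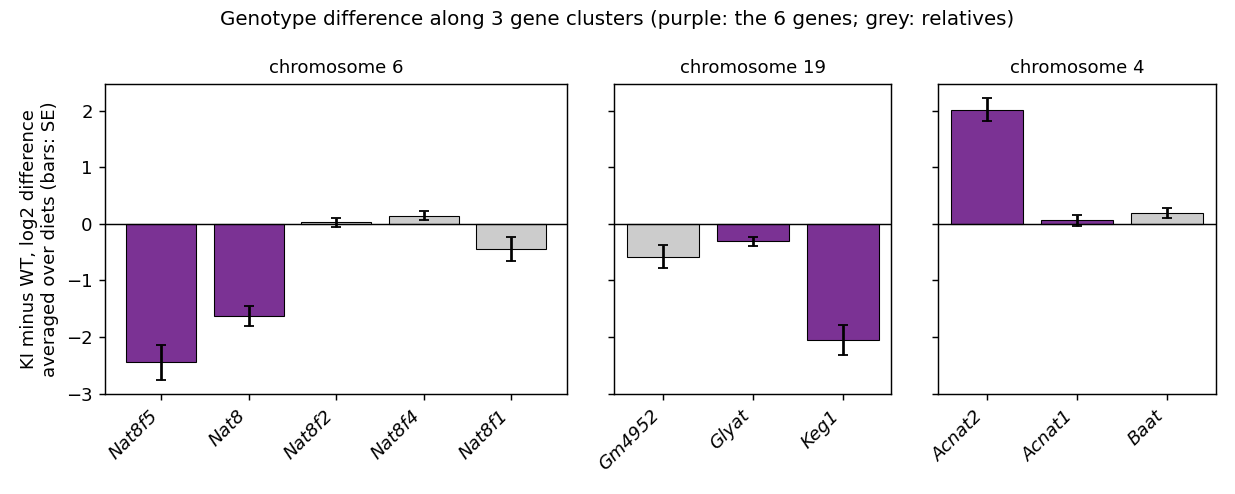
Averaged genotype difference (KI minus WT, log2, bars of 1 SE) of the genes in each cluster, in chromosome order, with the 6 genes in purple and their relatives in grey. Values of -2.45 for Nat8f5 and -1.63 for Nat8 stand beside 0.03 for Nat8f2, and 2.02 for Acnat2 stands beside 0.06 for Acnat1. Nat8f5 is dim on 4 of 6 KI arrays, and with the lower quartile of all genes in place of the dim values it was 4.96-fold lower.

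Other genes of these reactions were counted in 7 lists that hold none of the 6, with 49 of 55 genes measured. The lists were chosen with earlier results of these data known. For the genotype averaged over diets, 1 of the 49 was higher and 2 were lower in limma, against 2.81% of all genes, and the lists' median difference was 0.00 beside -0.04 over all genes. On the control diet 0 of 49 passed, against 0.0802% of all genes, and 2234 of all genes had an unadjusted p under 0.05. On the restricted diet 1 of 49 passed, against 0.471% of all genes.

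In the glycine conjugation list (7 of 7 measured, median -0.20) all 7 averaged genotype differences lay below 0, and 1 gene passed. That gene was Acsm1, a mitochondrial medium-chain acyl-CoA synthetase that makes acyl-CoA substrates for glycine conjugation. It measured 1296, 1155 and 1146 units in KI_MR and 1947, 1872 and 2090 units in WT_MR, and 1494, 1649 and 1602 units in KI_CD and 1829, 1800 and 2197 units in WT_CD. All KI arrays lay below all WT arrays. Its averaged difference was -0.50 ± 0.06, or 1.42-fold (adjusted p = 0.00697, limma), and it passed with any 1 array left out. On the restricted diet the difference was -0.72 ± 0.09 (adjusted p = 0.0149, limma), on the control diet -0.29 ± 0.09 (adjusted p = 0.287). The restricted-diet call was lost without KI_MR replicate 3 (adjusted p = 0.0662), WT_MR replicate 1 (0.0515) or WT_MR replicate 2 (0.0617). Acsm5, with -0.22 ± 0.10, did not pass (adjusted p = 0.218, limma).

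Sat2, of the spermidine/spermine acetyltransferase family, was the 1 higher gene, among 5 of 5 measured arylamine and polyamine acetyltransferases (median 0.13). It measured 362, 420 and 488 units in KI_MR and 226, 264 and 352 units in WT_MR, and 342, 364 and 378 units in KI_CD and 291, 245 and 271 units in WT_CD. Its averaged difference was 0.52 ± 0.11 (adjusted p = 0.0335, limma). The arrays of the genotypes did not overlap on either diet, but the highest WT_MR array lay above the lowest KI_CD array. The call depended on single arrays: it was lost in 9 of the 12 fits that left out 1 array, with adjusted p from 0.0553 to 0.0855, and kept only without KI_CD replicate 1, KI_MR replicate 1 or WT_MR replicate 3.

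Naa60, which acetylates the N-termini of membrane proteins at the Golgi, was the other lower gene, among 11 of 12 measured protein N-terminal and other acetyltransferases (median 0.07). It measured 2204, 2093 and 1978 units in KI_MR and 2814, 2860 and 2625 units in WT_MR, and 1896, 2371 and 2378 units in KI_CD and 2907, 2499 and 3171 units in WT_CD. All KI arrays lay below all WT arrays. Its averaged difference was -0.39 ± 0.08 (adjusted p = 0.0278, limma). The call was lost without KI_MR replicate 3 (adjusted p = 0.0787), WT_CD replicate 1 (0.0737) or 3 (0.0563), or WT_MR replicate 1 (0.0646) or 2 (0.0679).

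No gene of the other 4 lists passed for genotype averaged over diets in limma. In the Nat8 family (4 of 8 measured, median -0.09), Nat8l, which makes N-acetylaspartate, differed by -0.21 ± 0.09 (adjusted p = 0.223). Among bile acid and thioesterase relatives (8 of 8 measured, median -0.05), the thioesterase gene Acot1 differed by -0.75 ± 0.32 (adjusted p = 0.206). In the mercapturate pathway (10 of 11 measured, median 0.07), Acy3, which removes the acetyl group from mercapturic acids, differed by -0.22 ± 0.06 (adjusted p = 0.0766, limma). In N-acyl amino acid breakdown (5 of 5 measured, median 0.06), Aspa, which splits N-acetylaspartate, differed by -0.35 ± 0.16 (adjusted p = 0.229, limma).

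For diet averaged over genotypes, 1 of the 49 related genes was higher and 1 lower in limma, against 1.21% of all genes. The peroxisomal acyl-CoA thioesterase gene Acot3 measured 395, 410 and 284 units in KI_MR and 139, 105 and 172 units in KI_CD, and 524, 1096 and 298 units in WT_MR and 132, 227 and 146 units in WT_CD. All restricted-diet arrays lay above all control-diet arrays. The difference was 1.58 ± 0.28, or 2.99-fold higher on the restricted diet (adjusted p = 0.0216, limma). This call was lost without KI_CD replicate 2 (adjusted p = 0.0566), KI_MR replicate 1 (0.0664), WT_CD replicate 1 (0.0661) or 3 (0.057), or WT_MR replicate 1 (0.058).

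Acy3 was the lower gene. It measured 1240, 1199 and 1261 units in KI_MR and 1587, 1529 and 1629 units in KI_CD, and 1347, 1520 and 1471 units in WT_MR and 1969, 1610 and 1907 units in WT_CD. The diets did not overlap within either genotype. The difference was -0.35 ± 0.06, or 1.27-fold (adjusted p = 0.0178, limma), and the call was lost without KI_CD replicate 3 (adjusted p = 0.0529), KI_MR replicate 1 (0.0525), WT_CD replicate 1 (0.0531) or 3 (0.0508), or WT_MR replicate 1 (0.0526). Within KI and within WT, 0 of the 49 related genes passed for diet in limma, where 1551 and 1633 of all genes had an unadjusted p under 0.05.

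**Figure D4:**
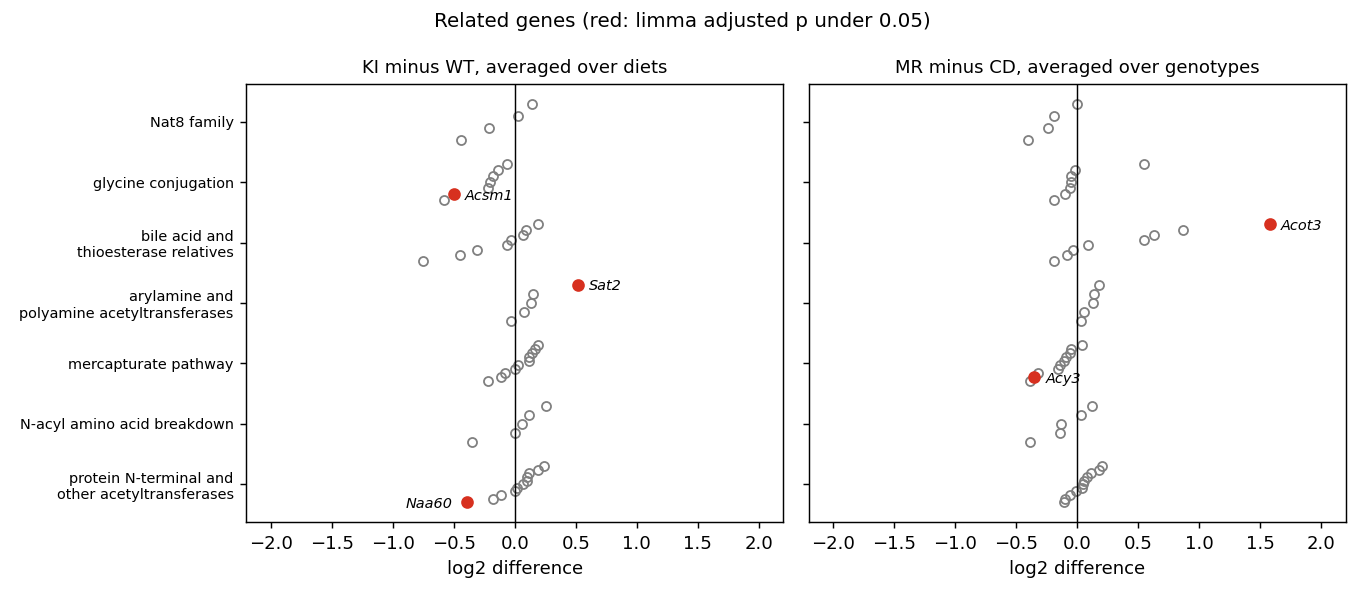
Log2 differences of the 49 related genes by list, averaged over diets for genotype (left) and over genotypes for diet (right), with 1 point per gene and red for a limma adjusted p under 0.05. Acsm1 and Naa60 were lower and Sat2 higher in KI, and Acot3 was higher and Acy3 lower on the restricted diet.

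Some genes known for a sex difference in mouse liver also differed between genotypes and between diets on these arrays. The 13 measured genes of 14 with higher levels in males averaged 7.37 to 7.84 log2 units per array in KI_MR, 7.66 to 9.30 in KI_CD, 8.50 to 9.22 in WT_MR and 10.80 to 11.38 in WT_CD. Of them 5 were lower in KI averaged over diets (0.838% of all genes were) and 7 were lower on the restricted diet averaged over genotypes (0.602% of all genes). The 10 measured genes of 14 with higher levels in females averaged 8.48 to 8.80 log2 units in KI_MR, 7.19 to 8.15 in KI_CD, 7.69 to 8.28 in WT_MR and 6.42 to 6.93 in WT_CD. Of those 3 were higher in KI (1.98% of all genes) and 5 were higher on the restricted diet (0.607%), one of which, Acot3, is also among the related genes. The KI_CD and WT_MR arrays overlapped in both lists. Within the female list, Acot3 had a genotype difference of -0.45 ± 0.28 (adjusted p = 0.345, limma) and A1bg a diet difference of -0.33 ± 0.29 (adjusted p = 0.82), both against the direction of the called genes. Both lists were chosen with earlier results of these data known, so nothing follows from how their counts compare with the shares of all genes. What part these genes' regulation has in the 6 genes' levels was not tested.

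Markers of other cells in the liver were read on the same arrays. Kupffer cell and macrophage markers averaged 9.02 to 9.47 log2 units on the KI arrays and 9.06 to 9.91 on the WT arrays. Of these 6 markers 0 passed for genotype averaged over diets in limma, and their median difference was -0.28, beside -0.04 over all genes. Lymphocyte markers averaged 6.06 to 6.28 log2 units on the KI arrays and 6.18 to 6.46 on the WT arrays, with 0 of 4 past the threshold and a median of -0.24. Stellate cell markers averaged 8.92 to 9.41 log2 units on the KI arrays and 8.91 to 9.15 on the WT arrays. Their median genotype difference was -0.05, with 3 genes above 0 and 3 below. Among those below, Col3a1 had -0.23 ± 0.08 (adjusted p = 0.142, limma). Of the 6, 1 was called, higher in KI. That gene was Dcn, for the matrix protein decorin, with 0.32 ± 0.07 (adjusted p = 0.0324, limma). Its call was lost in 7 of the 12 fits that left out 1 array (without any KI_MR array, WT_CD replicate 1 or 3, or WT_MR replicate 1 or 2), with adjusted p from 0.0536 to 0.0848. Cholangiocyte markers averaged 6.21 to 7.21 log2 units on the KI arrays and 6.25 to 6.47 on the WT arrays. Endothelial markers averaged 8.74 to 9.02 log2 units on the KI arrays and 8.72 to 9.05 on the WT arrays, and in both of these lists 0 genes passed. Their part in the differences of the 6 genes was not tested.

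Likeness to each member was measured, as a description, by the root mean square difference of mean-centred log2 levels over the 12 arrays. The 6 genes were left out of the ranking, so their likeness to each other is not given. The genes most like each member were then ranked among 12570 others. For Nat8, whose levels ranged over 2.60 log2 units, they were Tlcd2 (0.45), Aldh1a1 (0.47), which makes retinoic acid, and Tm7sf2 (0.50), of sterol synthesis. For Keg1, with a range of 3.93, they were Rarres1 (0.54), Nudt7 (0.66), a peroxisomal coenzyme A hydrolase that is also on the male list, and Nrep (0.68). Nat8f5, with a range of 3.70, had Rarres1 (0.78), Spc25 (0.89) and the transcriptional repressor Bcl6 (0.89). For Acnat2, with a range of 3.53, they were Ildr2 (0.56), the leptin receptor gene Lepr (0.63) and Steap2 (0.67). Among the genes ranked, Rarres1 thus stood first for both Keg1 and Nat8f5. Its group means were 6.03 in KI_MR, 7.41 in KI_CD, 7.63 in WT_MR and 9.03 in WT_CD. Glyat and Acnat1 ranged over only 0.73 and 0.47 log2 units and were not ranked.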

How the data were processed

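Total liver RNA of 12 samples was biotin-labelled and hybridised to 1-colour arrays, per the labels' protocols. The deposited values are linear intensities, whole numbers from 10 to 20042 with array medians of 82 to 90, and the authors' background correction, summarisation and scaling are not given in the sources used here. Precision is limited by the number of arrays, which have no read depth.

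The log2 of the deposited values was taken without further scaling. Of 35512 probe sets, 21789 carried 1 gene symbol in the platform annotation, 1621 several and 12102 none. A gene with several probe sets took its brightest one by mean intensity, giving 19938 genes, of which 19856 matched the reference gene table by Entrez identifier. Groups were taken from the sample titles. All genes and arrays entered a single limma fit (limma 3.58.1, R 4.3.3) with a mean for each of the 4 groups, 8 residual and 3.14 prior degrees of freedom and Benjamini-Hochberg adjustment per comparison (threshold 0.05). The fit was tested on simulated data. For a comparison of 3 arrays with 3, 0.1 is the smallest p of an exact two-sided permutation test. That limit does not hold for the averaged comparisons, and no permutation test was run for either kind.

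The 6 genes, the related lists, the marker lists and the lists of sex-biased genes were chosen with earlier results of these data known, so the genotype differences of the 6 are given without a test. Named are the 6 genes, Lmna, every related gene past the threshold and otherwise up to 3 per list with the largest averaged genotype difference, and the 3 genes most like each member (mean log2 level at least 6, range at least 1). The 6 genes and predicted loci were left out of that ranking by likeness. The genes next to a member and the sex-biased and marker lists are given as context.

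The alternatives tried were median centring, quantile normalization, an offset of 32 units, a filter on the dimmest 25% of genes, the mean of a gene's probe sets, trend and robust moderation, array weights, the compared arrays alone, a replicate block and leaving out each array. Upstream sequences are the RefSeq windows of GRCm38.p6 (250 bases), matched by symbol for all 6 genes.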

Additional observations from a re-analysis of the deposited data

How the results depend on the processing

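The genotype differences of the 6 genes, given without a test, kept their direction in every alternative run, except that of Acnat1 on the control diet, which lay near 0. The count of the 6 genes called for diet averaged over genotypes, 0 in the reported fit, was 1 without the dimmest 25% of genes (Acnat2, adjusted p = 0.0473, limma), 3 with array weights (Acnat2, Keg1 and Nat8) and 0 to 1 over the fits that left out 1 array (Keg1 without KI_CD replicate 1). With the replicate block it was 1 (Acnat2, adjusted p = 0.0405, limma). The groups share replicate numbers, and same-numbered arrays correlated at -0.059 to 0.244 in their deviations from the group means. Since 9 of 18 pairs were over 0.1 and not all, the numbers were not taken as pairs. An array correlated best with its own number, out of 3, in 26 of 36 cases, a hint of pairing from the data and not from the labels. Over all alternatives the adjusted p (limma) for diet ran from 0.0345 to 0.184 for Acnat2 and from 0.013 to 0.333 for Keg1. The array weights did not converge and put a weight of 16.7 on WT_MR replicate 1. Among the related genes, array weights gave 12 calls for genotype on the restricted diet (1 reported), 12 for genotype averaged over diets (3 reported) and 7 for diet averaged over genotypes (2 reported). The compared arrays alone gave 0 on the restricted diet, where Acsm1 had an adjusted p of 0.0541 (limma). Leaving out 1 array gave 0 to 2, 1 to 6 and 0 to 4 calls in these 3 comparisons. The most calls came without WT_MR replicate 3 for genotype and without KI_CD replicate 1 for diet.

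Differences that turned direction were uncalled and near 0. The averaged diet difference of Glyat, -0.03 as reported, was 0.01 after quantile normalization and -0.08 to 0.04 with 1 array left out, with 0.00 without KI_MR replicate 2. That of Acnat1, -0.01, was 0.04 after quantile normalization, 0.01 after median centring and -0.06 to 0.04 with 1 array left out. The diet difference of Nat8 in WT, 0.10, was -0.29 with array weights and -0.14 to 0.32 with 1 array left out. The Acnat2 interaction, -0.03, was 0.00 after quantile normalization, 0.07 with the offset, 0.34 with array weights and -0.27 to 0.35 with 1 array left out. The cause was not tested. No alternative probe set could be tried, since each of the 6 genes has 1.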
